A study of Homo sapiens with 12 samples.

Results

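The AP-1 family was followed in the glucocorticoid-treated leukemia line CCRF-CEM-C7H2 through 10 genes, JUN, JUNB, JUND, FOS, FOSB, FOSL1, FOSL2, ATF3, BATF and BATF3, out of 19775 genes that the arrays' probe sets name. The members were taken by symbol: every probe set that the platform annotation gives to a member alone was read, which came to 22 probe sets. Of these, 14 probe sets of 7 members reached a log2 of 4 on at least 3 of 12 arrays and were tested. The other 8 probe sets lay below 4 on all 12 arrays, and they included every probe set of FOS, FOSB and FOSL1.

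CCRF-CEM-C7H2 is a subclone of a T-cell acute lymphoblastic leukemia (T-ALL) line that dies when treated with glucocorticoids. Dexamethasone, a synthetic glucocorticoid, was given at 100 nM, control cells had the carrier alone (0.1% ethanol), and RNA was taken after 6 h or 24 h. Each of the 4 groups (ethanol at 6 h, dexamethasone at 6 h, ethanol at 24 h, dexamethasone at 24 h) held 3 arrays from 3 independent experiments of this single line, which carry the numbers 0, 1 and 3 (6 h) or 1, 2 and 3 (24 h). The arrays were Affymetrix HG-U133 Plus 2, and the study compared dexamethasone with ethanol at each time.

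AP-1 is a dimeric transcription factor built from basic leucine zipper (bZIP) proteins. JUN proteins pair with each other or with FOS, ATF and BATF proteins, and the make-up of the dimer sets which DNA site is bound and whether a target gene is switched on or off. Most of these genes are immediate early genes, which respond within minutes to growth factor, antigen receptor or stress signals. In T cells AP-1 acts with NFAT downstream of the antigen receptor, and the ligand-bound glucocorticoid receptor is known to interfere with AP-1 by protein contact.

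JUN is known to act on its own promoter through a proximal and a distal AP-1-like element. Promoter windows at annotated starts of members that changed are shown, as places where such a feedback could be read. RefSeq (GRCh38.p14) gave 9 windows for 8 of the 10 members, each from 250 bases before to 50 bases after a gene start; BATF3 and FOSL1 were not matched. The part before the start is printed 5′ to 3′ on the gene's strand for JUN (chr1:58784048-58784297, minus strand), for the first of the ATF3 windows (chr1:212565157-212565406, plus strand) and for JUNB (chr19:12791236-12791485, plus strand). Capitals mark matches to TGACATCA or TTACCTCA, the proximal and distal elements of JUN, or to TGACTCA or TGACGTCA, the canonical sites of AP-1 and of ATF and CREB factors.
JUN: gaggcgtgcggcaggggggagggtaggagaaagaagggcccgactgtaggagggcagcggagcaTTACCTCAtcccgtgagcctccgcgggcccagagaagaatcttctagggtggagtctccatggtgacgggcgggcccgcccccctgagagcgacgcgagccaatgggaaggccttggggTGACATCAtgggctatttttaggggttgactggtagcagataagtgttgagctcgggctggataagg
ATF3: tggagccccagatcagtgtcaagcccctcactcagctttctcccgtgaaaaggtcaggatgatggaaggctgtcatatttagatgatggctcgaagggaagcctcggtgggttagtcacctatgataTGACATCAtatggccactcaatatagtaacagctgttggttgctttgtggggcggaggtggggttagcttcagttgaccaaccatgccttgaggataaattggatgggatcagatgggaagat
JUNB: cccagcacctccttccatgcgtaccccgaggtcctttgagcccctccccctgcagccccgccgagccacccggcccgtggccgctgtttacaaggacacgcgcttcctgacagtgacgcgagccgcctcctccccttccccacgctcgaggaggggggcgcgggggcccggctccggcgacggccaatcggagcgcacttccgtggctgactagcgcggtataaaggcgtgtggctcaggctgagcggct

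In the JUN window TTACCTCA began 186 bases and TGACATCA 67 bases upstream of the start, and in this ATF3 window TGACATCA began 123 bases upstream. The other ATF3 window (chr1:212614768-212615017 before its start), which is not printed, held none of the marked motifs. Which ATF3 start these cells use was not tested, so neither window is taken as the promoter that ATF3 is known to repress. Both strands of all 35116 windows were searched, and none of these 4 motifs lies within another. TGACATCA was in 2.61% of the windows and TTACCTCA in 0.715%, with JUN as the one member that held it. TGACTCA was in 4.95% of the windows and among the members in that of FOSL2 alone, beginning at base 5 of the transcript. TGACGTCA was in 1.85% and among the members in that of JUND alone, 200 bases upstream. The full glucocorticoid response element was searched only as the exact string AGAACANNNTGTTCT, which was in 1 of the 35116 windows and in no member. With so rare a string, its absence from the members cannot show that they lack receptor sites. The shorter site AGAACA, which is contained in it, was in 14.8% of the windows and among the members in that of FOSB alone. A match is a string of letters and no evidence of binding.

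Before the members, the state of the arrays is given. Between 22503 and 22941 probe sets per array (41.2 to 42.0% of 54675) reached a log2 of 4, array medians lay between 3.01 and 3.11, and arrays of a group correlated at 0.997 or more across probe sets. TSC22D3, the glucocorticoid-induced leucine zipper gene used as a check of the treatment, rose from background by at least 7.49 at 6 h and 8.71 at 24 h (log2, measured against 4). Of 13 T-lineage markers 11 passed the filter, with CD2 and DNTT below 4, and their summed level lay between 14.92 and 15.20 on all arrays. No myeloid marker of 5 and no erythroid marker of 2 passed. Of 4 stromal markers COL1A1 passed, and of 4 B-cell markers CD79A and CD79B passed while MS4A1 and PAX5 lay below 4. The summed level of the B-cell markers was 10.22 to 10.41 with ethanol and 11.72 to 11.86 with dexamethasone at 24 h, and its part in the results was not tested. By codes in the labels' array names the arrays form 3 batches, namely the treated arrays of 6 h, the control arrays of 6 h, and both groups of 24 h together. At 6 h, batch therefore cannot be told apart from treatment. 18S ribosomal RNA probe sets were lower by 2.27 (log2) with dexamethasone at 6 h and differed by 0.28 at 24 h. The poly-A spike controls exceeded their ethanol level on the dexamethasone arrays, by 0.42 (6 h) and 0.29 (24 h). So did the hybridization controls, put in once the RNA has been labelled, by 0.34 and 0.38. The part of these controls in the results was not tested. Scaling the arrays to these spikes moves the median of all genes by -0.42 at 6 h and -0.29 at 24 h. Each gene's difference moves by that same amount, so a rise smaller than it turns into a fall. Values on this scale are given for many of the calls it changes, but not for all changed calls and signs.

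JUN, the principal partner in most AP-1 dimers, rose after 6 h of dexamethasone and rose further by 24 h. JUNB, its close relative and in many settings a weaker activator, fell by less at both times. ATF3, a stress-induced bZIP repressor, and BATF3, which lacks a transactivation domain and pairs with JUN proteins, had fallen by 24 h. JUND, FOSL2 and BATF had no called change at either time. By limma with Benjamini-Hochberg adjustment over all 23265 tested probe sets (a change is an adjusted p under 0.05), 2 of the 7 tested members changed at 6 h, 1 up and 1 down, where 6.49% of all 9947 tested genes did (2.72% up, 3.77% down). At 24 h 4 of 7 changed, 1 up and 3 down, where 52.0% of all genes did (23.9% up, 28.1% down), so a call at 24 h by itself was the commoner outcome. On the spike scale 1 member was up and 5 were down at 6 h, and 1 up and 4 down at 24 h. Of all genes, that scale called 63.3% at 6 h (119 up, 6181 down) and 55.7% at 24 h (1077 up, 4466 down).

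**Figure D1:**
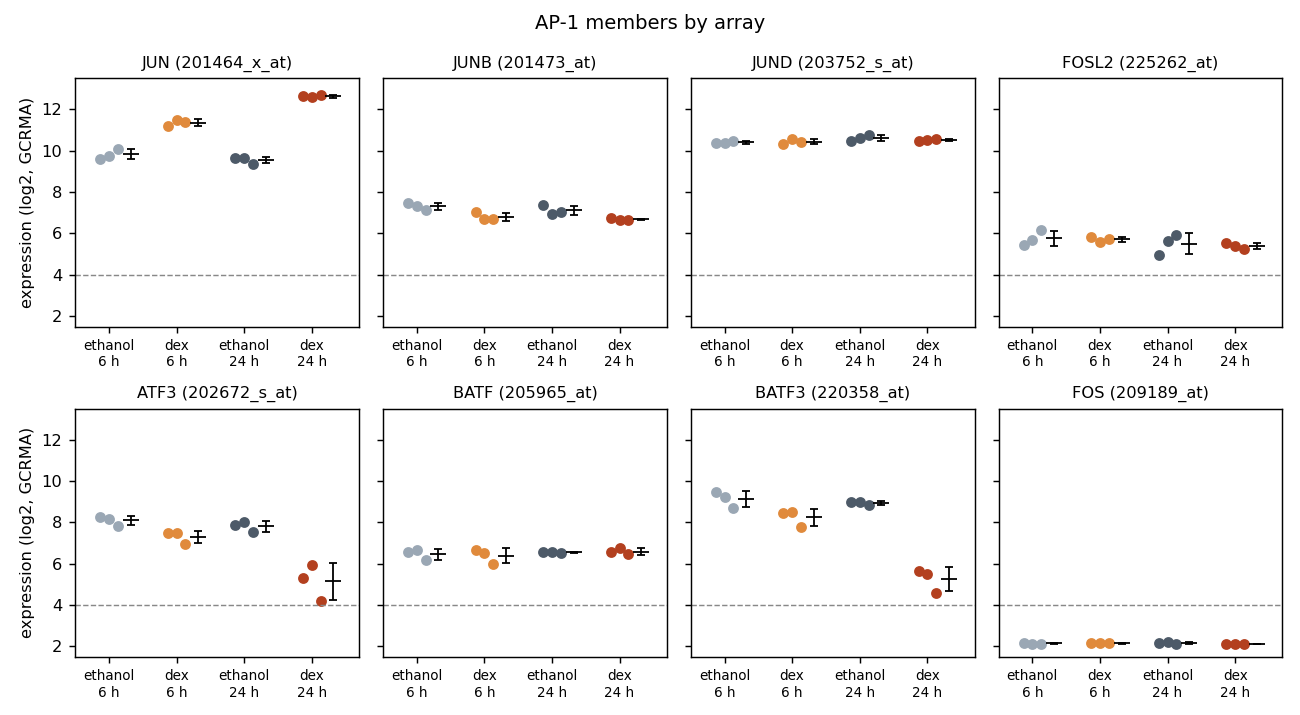
Deposited log2 expression of 8 AP-1 members on each array (vertical axis) in the 4 groups (horizontal axis); dots are arrays, bars are the group mean ± SD (n = 3), and the dashed line is the filter at 4. JUN climbs with dexamethasone, from a mean of 9.56 with ethanol to 12.65 at 24 h, ATF3 and BATF3 drop to between 4.19 and 5.95 at 24 h, JUND, FOSL2 and BATF stay level, and FOS lies below the filter throughout.

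JUN was measured by 4 probe sets. On 201464_x_at, the brightest, it read 9.63, 9.77 and 10.10 (log2) with ethanol and 11.20, 11.49 and 11.42 with dexamethasone at 6 h. At 24 h it read 9.65, 9.64 and 9.38 with ethanol and 12.64, 12.58 and 12.72 with dexamethasone. Every dexamethasone array was above every ethanol array at both times, as for 10.8% of genes at 6 h and 30.5% at 24 h. In either direction the groups did not overlap for 25.4% and 65.8% of genes. The rise was 1.53 ± 0.13 (log2 difference ± limma's standard error, n = 3 arrays per group) at 6 h, 2.89-fold, with an adjusted p of 6.01e-05 in limma. At 24 h it was 3.09 ± 0.13, 8.51-fold, with a limma adjusted p of 2.89e-08. It was present in every experiment, by 1.31 to 1.72 at 6 h and by 2.94 to 3.34 at 24 h.

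The response of JUN differed between the times by 1.56 ± 0.18 (limma adjusted p = 0.000234), a change called in 27.1% of genes (12.3% up, 14.8% down). The ethanol arrays of the 2 times differed by -0.28 ± 0.13 (limma adjusted p = 0.347), and 0 of the 7 members had a called difference there, where 0.432% of genes did (0.201% up, 0.231% down). At an unadjusted p under 0.05 JUND differed there on its brightest probe set, and JUN on 2 others. The ethanol arrays of 6 h and of 24 h lie in different batches, so in this comparison batch and time cannot be told apart. The order of JUN on 201464_x_at was thus dexamethasone at 24 h, dexamethasone at 6 h, and then the ethanol groups, whose arrays overlapped. On 201465_s_at and 201466_s_at the ethanol arrays of 24 h lay below those of 6 h, by 0.28 and 0.52, which did not pass the test (limma adjusted p = 0.135 and 0.142). Among all tested genes JUN stood 46th from the top at 6 h and 94th at 24 h.

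The name ending _x_at marks a probe set with probes that can match other transcripts, so the other 3 JUN probe sets were read as well. On 201465_s_at JUN went from 7.41, 7.41 and 7.40 to 8.54, 8.63 and 8.60 at 6 h, and from 7.10, 7.27 and 7.02 to 10.53, 10.54 and 10.65 at 24 h. On 201466_s_at the rises were 1.67 ± 0.15 and 3.78 ± 0.15, and on 213281_at 1.18 ± 0.15 and 3.02 ± 0.15, at 6 h and 24 h. The 4 probe sets thus gave rises of 1.18 to 1.67 at 6 h and 3.02 to 3.78 at 24 h, all called, and each was larger at 24 h by 1.56 to 2.26, also called.

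JUNB was measured by 1 probe set, 201473_at. With ethanol it read 7.47, 7.31 and 7.16 at 6 h and 7.38, 6.94 and 7.03 at 24 h. With dexamethasone it read 7.02, 6.70 and 6.70 at 6 h and 6.73, 6.67 and 6.66 at 24 h. All dexamethasone arrays lay below the ethanol arrays of their time, as for 14.6% of genes at 6 h and 35.3% at 24 h, but by small margins. JUNB fell by 0.51 ± 0.13 at 6 h (limma adjusted p = 0.0468) and by 0.43 ± 0.13 at 24 h (limma adjusted p = 0.0190), which is 1.42 and 1.35 times lower, and these falls differed by 0.08 ± 0.19 (adjusted p = 0.810). The 6 h call was lost without any of 10 of the 12 arrays (adjusted p up to 0.141) and under 4 other choices of processing. The 24 h call was lost without array 1 of the ethanol group (-0.30, adjusted p = 0.0754) or array 3 of the dexamethasone group (adjusted p = 0.0536).

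Because JUN rose and JUNB fell, the difference between them was taken within each array; its level depends on the probes, and only its change is read. With ethanol it was 2.16, 2.45 and 2.95 (log2) at 6 h and 2.26, 2.70 and 2.35 at 24 h. With dexamethasone it was 4.18, 4.78 and 4.72 at 6 h and 5.91, 5.91 and 6.05 at 24 h. JUN thus gained on JUNB by 2.04, or 4.12-fold, at 6 h and by 3.52, or 11.5-fold, at 24 h, with no overlap of the groups. Since the pair was taken for its opposite changes, this is a description. An exact permutation test gave p = 0.1 at each time. That is the smallest p possible with 3 against 3 arrays, and it is not read as support. A scaling of whole arrays cannot change this difference.

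**Figure D2:**
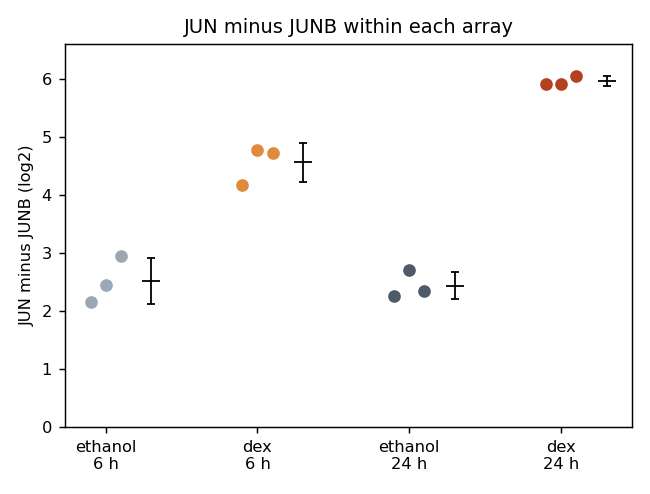
JUN (201464_x_at) minus JUNB (201473_at) within each array, in log2 (vertical axis), for the 4 groups (horizontal axis); dots are arrays and bars the group mean ± SD (n = 3). The ethanol groups have means of 2.52 and 2.44, and dexamethasone raises the difference to 4.56 at 6 h and 5.96 at 24 h.

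JUND, the JUN protein that most cells express without stimulation, was measured by 4 probe sets, of which 3 were tested. On 203752_s_at it read 10.36, 10.38 and 10.50 with ethanol and 10.35, 10.58 and 10.41 with dexamethasone at 6 h. At 24 h it read 10.47, 10.62 and 10.76 with ethanol and 10.47, 10.50 and 10.59 with dexamethasone, and the groups overlapped at both times. The differences were 0.04 (95% interval -0.17 to 0.24) and -0.10 (-0.30 to 0.11). On the spike scale the sign at 6 h turned, to -0.38 (limma adjusted p = 0.0161), and at 24 h the value was -0.39 (adjusted p = 0.0136). On 203751_x_at the dexamethasone arrays lay below the ethanol arrays at 24 h, by 0.23 ± 0.12, which did not pass the test (limma adjusted p = 0.150). 214326_x_at gave 0.04 and -0.04, and 229117_s_at lay at 2.05 or lower on all arrays.

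Of the FOS proteins, which cannot pair with each other and need a JUN partner, only FOSL2 was above background in these cells. FOS (209189_at) lay between 2.13 and 2.19, FOSB (202768_at) between 2.31 and 2.38, and FOSL1 (204420_at) between 2.18 and 2.58 over all 12 arrays. At that signal a difference between groups was not detectable on these arrays. FOSL2, the FOS-related antigen FRA-2, had 5 probe sets, of which 225262_at and 228188_at were tested and the other 3 lay below 4. On 225262_at it read 5.45, 5.68 and 6.15 with ethanol and 5.84, 5.60 and 5.72 with dexamethasone at 6 h, and 4.94, 5.66 and 5.92 against 5.52, 5.40 and 5.23 at 24 h. The groups overlapped, and the differences were -0.04 (95% interval -0.56 to 0.48) and -0.13 (-0.64 to 0.39). 228188_at gave 0.08 ± 0.23 and -0.15 ± 0.23.

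ATF3 is induced by many stresses and represses its own promoter as a homodimer. On 202672_s_at it read 8.27, 8.18 and 7.82 with ethanol and 7.47, 7.46 and 6.94 with dexamethasone at 6 h. At 24 h it read 7.86, 8.01 and 7.53 with ethanol and 5.31, 5.95 and 4.19 with dexamethasone. The 3 dexamethasone arrays of 24 h lay apart from all others, with a wide spread among them (SD 0.89). The difference was -0.80 ± 0.36 at 6 h, where the groups did not overlap but the test was not passed (limma adjusted p = 0.242; called on the spike scale at -1.22, adjusted p = 0.00927). At 24 h ATF3 fell by 2.65 ± 0.36, which is 6.28 times lower (limma adjusted p = 0.000129).

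The change between the times for ATF3 on 202672_s_at was -1.85 ± 0.51 (limma adjusted p = 0.0233). It was lost without ethanol array 1 of 24 h (adjusted p = 0.0501), ethanol array 2 of 24 h (0.0567) or ethanol array 3 of 6 h (0.0536), and with no filter on low values (0.0780). A second probe set, 1554980_a_at, read 5.31, 5.21 and 5.77 against 4.95, 5.05 and 4.80 at 6 h and 5.32, 5.18 and 5.03 against 4.32, 4.73 and 4.52 at 24 h, ethanol first. It too gave a called fall at 24 h, of 0.66 ± 0.15 (limma adjusted p = 0.00482), and -0.50 ± 0.15 at 6 h (adjusted p = 0.0883). On it the responses of the 2 times differed by -0.16 ± 0.22 (adjusted p = 0.653), so a deeper fall was called on 202672_s_at alone. 1554980_a_at was the dimmer of these probe sets and read 4.32 to 4.73 with dexamethasone at 24 h, near the filter at 4. The part of its low signal in the unlike results was not tested. 1554420_at lay below 4 on all arrays.

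BATF and BATF3 are small bZIP proteins that pair with JUN proteins and then bind composite sites with IRF factors in T cells and dendritic cells. BATF (205965_at) read 6.56, 6.66 and 6.17 with ethanol and 6.65, 6.54 and 5.99 with dexamethasone at 6 h. At 24 h it read 6.56, 6.55 and 6.54 with ethanol and 6.55, 6.75 and 6.45 with dexamethasone. The groups overlapped, with differences of -0.07 ± 0.17 and 0.03 ± 0.17, and on the spike scale BATF was lower at 6 h (-0.49, limma adjusted p = 0.0276).

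BATF3 (220358_at) had the largest called fall of the 7 tested members at 24 h. With ethanol it read 9.45, 9.21 and 8.69 at 6 h and 8.98, 8.99 and 8.84 at 24 h. With dexamethasone it read 8.43, 8.52 and 7.78 at 6 h and 5.66, 5.48 and 4.58 at 24 h. At 6 h the groups did not overlap and the difference was -0.87 ± 0.29 (limma adjusted p = 0.114). With the experiment number as a block this was called (adjusted p = 0.0242), and also on the spike scale (-1.29, adjusted p = 0.00313). At 24 h BATF3 fell by 3.69 ± 0.29, which is 12.9 times lower (limma adjusted p = 2.63e-06), the 4th lowest value of 9947 genes, where ATF3 was 19th. The responses differed by -2.82 ± 0.41 (limma adjusted p = 0.000817). BATF3 was thus lowest with dexamethasone at 24 h, then with dexamethasone at 6 h, and the ethanol groups, which differed by -0.18 ± 0.29, were highest. On these bulk arrays fewer expressing cells and less RNA per cell cannot be told apart.

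**Figure D3:**
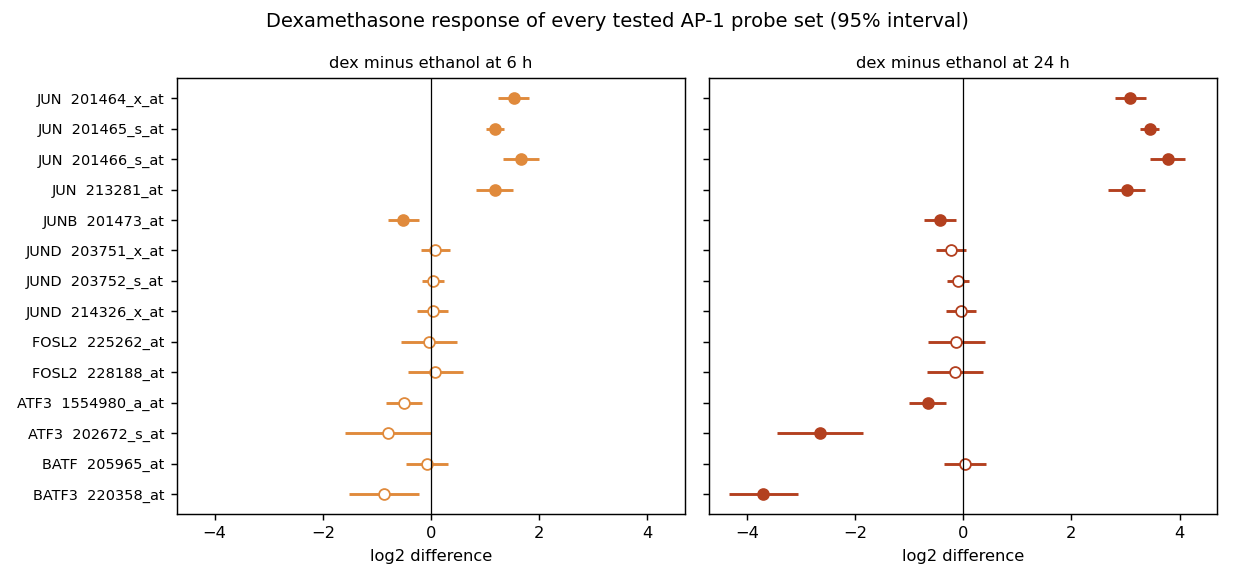
Log2 difference of dexamethasone minus ethanol (horizontal axis) for each of the 14 tested AP-1 probe sets (rows), at 6 h on the left and 24 h on the right; bars are 95% intervals and filled points passed the test. The 4 JUN probe sets lie to the right at both times, from 1.18 to 1.67 and from 3.02 to 3.78, and BATF3 lies farthest left at 24 h, at -3.69.

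The genes whose profile over the 12 arrays was most like that of a member, by the root mean square (RMS) of the difference between profiles centred on their own means, were taken for the 4 members with the largest called change at 24 h. For JUN these were CRYBG1 (RMS 0.235 log2; 1.82 at 6 h and 2.82 at 24 h), PLXNA1, a semaphorin receptor (0.269), and RHEX (0.276), where the median over 9946 other genes was 1.27. For BATF3 they were LINC02036 (0.355), RGS16, a regulator of G protein signalling (0.437), and ATF3 (0.471), with a median of 1.59. RGS16 differed by -0.83 at 6 h (called on the spike scale at -1.25, limma adjusted p = 0.00141) and fell by 3.38 at 24 h. For ATF3 they were DIXDC1 (0.281), POLR3G, a subunit of RNA polymerase III (0.301), and KANK1 (0.315), with a median of 1.22. For JUNB they were KRR1 (0.126), ZNF492 (0.130) and TOX (0.135), with a median of 0.356.

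The rest of the pathway was read from a list of 97 genes in 6 roles, of which 86 had a probe set of their own and 63 were tested. At 6 h 5 rose and 5 fell, with a median difference of 0.01 where that of all tested genes was -0.00. At 24 h 22 rose and 11 fell, with a median of 0.08 where that of all tested genes was -0.02. The split depends on the scale: with spike scaling 3 rose and 37 fell at 6 h, and 10 rose and 21 fell at 24 h, where 63.3% and 55.7% of all genes were called. Without spike scaling 6.49% of all genes were called at 6 h (2.72% up, 3.77% down), as above. At 24 h it was 52.0% (23.9% up, 28.1% down). The counts by role that follow are of 6 to 16 tested genes each and are to be read beside these shares. No role was tested as a set.

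Of 16 tested dimer partners and other bZIP factors, 2 rose and 1 fell at 6 h, and 5 rose and 3 fell at 24 h. NFIL3, a bZIP repressor, rose from a mean of 6.69 to 9.35 at 6 h (2.66 ± 0.16, limma adjusted p = 5.78e-06) and from 6.62 to 10.67 at 24 h (4.05 ± 0.16). NFE2L2, the regulator NRF2 of antioxidant genes, rose by 0.49 and 0.37, calls that were lost on the spike scale at both times. BACH2, a repressor that competes for AP-1 sites in lymphocytes, went from 8.18 to 7.43 at 6 h (-0.74 ± 0.12, limma adjusted p = 0.00558) and from 8.11 to 6.22 at 24 h (-1.90 ± 0.12). MAFF, named after its value was seen, rose at 24 h from background by at least 1.52, measured against 4. It passed the filter only through the dexamethasone arrays of 24 h (mean 5.52). Its place among the genes counted as risen at 24 h, here and in the whole list, therefore depended on that rise.

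Of 16 kinases and factors upstream of AP-1, 1 rose at 6 h, and 6 rose and 1 fell at 24 h. MAP2K1, the kinase MEK1, rose by 0.52 ± 0.08 at 6 h, a call lost on the spike scale and in a fit of the 6 h arrays alone (adjusted p = 0.0512), and by 0.73 ± 0.08 at 24 h (limma adjusted p = 3.43e-05). MAP3K1, a kinase upstream of JNK, differed by -0.05 ± 0.10 at 6 h and rose by 1.07 ± 0.10 at 24 h (limma adjusted p = 7.03e-06). MAPK9, the kinase JNK2 that phosphorylates JUN, differed by -0.31 ± 0.17 and -0.21 ± 0.17, neither called.

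Of 10 genes for turnover and cofactors 0 were called at 6 h by limma (1 at an unadjusted p under 0.05), and at 24 h 2 rose and 2 fell. CUL4A, a scaffold of ubiquitin ligases, differed by -0.32 ± 0.10 at 6 h (limma adjusted p = 0.0881) and fell by 0.50 ± 0.10 at 24 h. CREBBP, the coactivator CBP, rose by 0.39 ± 0.07 at 24 h, a call lost on the spike scale, and MEN1, whose product menin binds JUND, differed by 0.16 ± 0.12 and -0.19 ± 0.12. On the spike scale CUL4A (-0.73), MAPK9 (-0.73), MAP3K1 (-0.47) and CREBBP (-0.45) were called lower at 6 h, and MAPK9 (-0.51) and MEN1 (-0.48) at 24 h.

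Among 6 tested partners on composite sites, 1 rose and 2 fell at 6 h, and 4 rose and 2 fell at 24 h. NR3C1, the glucocorticoid receptor itself, rose by 1.94 ± 0.09 and 1.95 ± 0.09. NFATC2, a partner of AP-1 at cytokine promoters, fell by 0.56 ± 0.09 at 6 h (limma adjusted p = 0.00571, and 0.0653 in a fit of the 6 h arrays alone) and by 0.33 ± 0.09 at 24 h (adjusted p = 0.0130). SMAD3, which carries TGF-beta signals, differed by 0.27 ± 0.17 at 6 h and rose by 1.54 ± 0.17 at 24 h.

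Among 8 other immediate early genes, 2 fell at 6 h, and 2 rose and 2 fell at 24 h. IER3 fell by 1.41 ± 0.25 and 1.57 ± 0.25, and IER2 by 0.46 ± 0.12 and 0.80 ± 0.12, its 6 h call being close to the threshold (limma adjusted p = 0.0443). That call was lost without any of 10 of the 12 arrays (adjusted p up to 0.138), under cyclic loess (0.0604), median centring (0.0655) and no filter (0.0903), and with the 6 h arrays alone (0.0961). MCL1, a survival protein of the BCL2 family, differed by 0.26 ± 0.09 at 6 h (called with the experiment number as a block, adjusted p = 0.0429) and rose by 0.62 ± 0.09 at 24 h, a call lost on the spike scale (adjusted p = 0.0525).

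Of 7 tested target genes 1 rose at 6 h, and 3 rose and 1 fell at 24 h. CD69, an early activation antigen of lymphocytes, rose from a mean of 7.92 to 11.15 at 6 h (3.23 ± 0.18, limma adjusted p = 2.58e-06) and from 7.87 to 12.24 at 24 h (4.38 ± 0.18). TIMP1, an inhibitor of matrix metalloproteinases, differed by 0.19 ± 0.12 at 6 h and rose by 1.27 ± 0.12 at 24 h. CD44, an adhesion receptor, differed by -0.53 ± 0.18 at 6 h (limma adjusted p = 0.114; called with the experiment number as a block at 0.00723 and on the spike scale at -0.95, adjusted p = 0.00283) and fell by 0.60 ± 0.18 at 24 h, a call lost without ethanol array 1 or 2 or dexamethasone array 3.

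**Figure D4:**
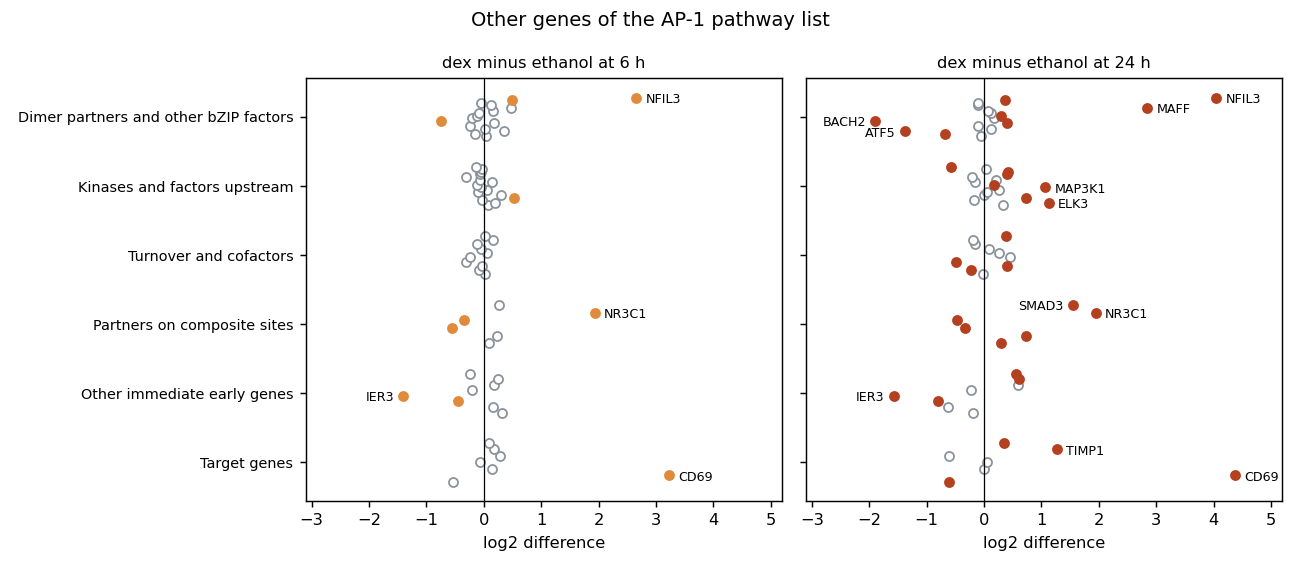
Log2 difference of dexamethasone minus ethanol (horizontal axis) for the 63 tested genes of the pathway list, grouped by role (rows), at 6 h on the left and 24 h on the right; filled points passed the test, and called genes past 1 in size are named. Most points lie near 0 at 6 h, with NFIL3, CD69 and NR3C1 to the right, and the spread is wider at 24 h; MAFF was at background with ethanol, so its plotted value rests on a level below 4.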

How the data were processed

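The authors' deposited table holds log2 expression values per probe set, which per the submitters' processing notes come from R 2.6 and GCRMA; no settings were stated. The 12 arrays limit the precision. A group-means model over all 12 arrays was fitted with limma 3.58.1 in R 4.3.3 (8 residual degrees of freedom, empirical Bayes), after a filter of log2 4 on at least 3 arrays. Benjamini-Hochberg adjustment ran over 23265 probe sets, and each of 9947 genes was read from its brightest tested probe set. The script was tested on simulated data. All p values rest on the variation between experiments with a single line.

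The members and lists were chosen with earlier results of these data known. Named were all members, per role and time the 2 pathway genes with the smallest p, the 3 closest profiles of 4 members, and 2 check genes. Experiment numbers pair the arrays: same-numbered arrays correlated, after group means were taken off, at 0.417, 0.627 and 0.609 at 6 h and 0.286, 0.238 and 0.424 at 24 h, other pairs at 0.0500 at most. Alternatives were the block, other filters, scalings, moderation and probe set rules, the compared arrays alone, and each array left out.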

Additional observations from a re-analysis of the deposited data

Results flagged for a closer look

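The response to dexamethasone differed between 24 h and 6 h, by limma's test of the difference itself, for 3 of the 7 tested members. Of all genes 27.1% had such a call (12.3% up, 14.8% down). In the pathway list 13 of 63 tested genes were called up and 3 down, and 7 of those named for their p are given below. MAFF was called too but is left out, because its mean lay below 4 in every group except dexamethasone at 24 h. For JUN the difference was 1.56 ± 0.18, for ATF3 -1.85 ± 0.51 and for BATF3 -2.82 ± 0.41 (log2, limma adjusted p = 0.000234, 0.0233 and 0.000817). JUN rose at both times and more at 24 h. ATF3 and BATF3 had a called fall at 24 h and, in the fit without a block, none at 6 h. With the experiment number as a block BATF3 was called lower at 6 h too (limma adjusted p = 0.0242). On the spike scale both were called lower at 6 h. The call for ATF3 was lost without any of 3 ethanol arrays and with no filter, and its probe set 1554980_a_at gave -0.16 ± 0.22 (adjusted p = 0.653).

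In the pathway list the difference was 1.39 ± 0.23 for NFIL3, 1.14 ± 0.25 for CD69 and -1.15 ± 0.18 for BACH2, which all had a called change at 6 h already. It was 1.12 ± 0.14 for MAP3K1, 1.27 ± 0.25 for SMAD3, 1.08 ± 0.18 for TIMP1 and 0.43 ± 0.09 for CREBBP, which were called at 24 h alone. The adjusted p was 0.00851 or less for all 7, and that of CREBBP was 0.0667 on the spike scale and 0.0870 with the mean of its probe sets. The 6 h responses lie across 2 batches, so in each of these differences batch and treatment cannot be told apart.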

How the results depend on the processing

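The count of called members at 6 h moved from 2 to 1 under cyclic loess, median centring, no filter and a fit of the compared arrays alone, since JUNB was lost (adjusted p = 0.0880, 0.0757, 0.107 and 0.120), and to 6 on the spike scale. The pathway list gave 6 calls at 6 h in place of 10 with the compared arrays alone and 40 on the spike scale. Of all genes 2.23% were called at 6 h with the compared arrays alone and 63.3% on the spike scale. JUND at 6 h reversed on the spike scale, to -0.38. The spike scale's own construction lowers each dexamethasone minus ethanol difference and raises the difference between the times, whose median over all genes it moves by 0.12; the cause of the other moves was not tested. With each array left out in turn, the calls ranged from 1 to 2 members at 6 h, 3 to 4 at 24 h, 2 to 3 for the difference between the times and 0 to 0 for ethanol over time, and in the pathway list from 8 to 11 at 6 h and 26 to 35 at 24 h. JUN minus JUNB ranged from 1.86 to 2.25 and from 3.43 to 3.65.

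With the replicate block 3 members were called at 6 h, 4 at 24 h and 3 for the difference, and 12 and 39 pathway genes. The same block, nested in time, called 13.6% of all genes at 6 h, 61.3% at 24 h and 38.4% for the difference. Called genes thus grew in number across all genes as well. At 6 h the block added the calls of BATF3, CD44, MCL1 and RGS16 and lost that of LINC02036, and for the difference it added MCL1 and MEN1; it changed no other call of a named gene. JUN, ATF3 and BATF3 kept their 24 h call and direction under all alternatives run. The block nested in time could not be fitted for the ethanol contrast, and the compared arrays alone give no difference between times.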

Other observations

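ATF3 and BATF3 are near neighbours on chromosome 1, with GARIN4 between them in the RefSeq order. At 24 h GARIN4 differed by 0.07 ± 0.09, and the flanking genes NENF (0.15 ± 0.09), PACC1 (0.14 ± 0.09), PPP2R5A (0.12 ± 0.07), NSL1 (-0.12 ± 0.10) and TATDN3 (0.16 ± 0.11) were not called by limma either. DTL and FLVCR1, farther out, fell by 0.47 ± 0.14 and 0.56 ± 0.13. These genes were chosen after their values were seen. FOS and BATF likewise flank JDP2, a bZIP repressor of AP-1, on chromosome 14. JDP2 differed by 0.06 ± 0.56 at 24 h, but its means of 3.54 (ethanol) and 3.61 (dexamethasone) lay below 4. A change at that signal could hardly be read. Of the tested genes around this pair, ACYP1 fell by 0.62 ± 0.15 at 24 h. NEK9 and TMED10 rose by 0.52 ± 0.13 and 0.20 ± 0.06, and ERG28 (0.03 ± 0.13) and TTLL5 (-0.02 ± 0.09) were not called.

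Of 8214 tested genes with a promoter window, 24.0% rose and 28.5% fell at 24 h. Among the 343 with TGACTCA 34.4% rose and 25.4% fell, and among the 157 with TGACATCA 34.4% rose and 23.6% fell. Among the 330 with TGACGTCA 22.4% rose and 30.3% fell, and among the 66 with TTACCTCA 22.7% rose and 28.8% fell. These shares are descriptions of the windows with no test, and base composition was not matched.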
